A study of Mus musculus with 8 samples.

Results

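Lars2 is the nuclear gene for mitochondrial leucyl-tRNA synthetase, and its transcripts were followed here through Nanopore cDNA libraries of mouse liver mitochondria. The gene was chosen by its measured counts, which were high for a nuclear gene in these libraries, so its level is given as a description. All rows of the count table that belong to Lars2 were taken. These were 2 of the 8688 transcripts, followed in all 8 libraries. The mice were WT C57BL/6N animals aged 12 weeks (12 W) or 65 weeks (65 W), with 4 libraries per age and no allele or treatment that set the groups apart. The younger cohort is described as female, while for the older mice no sex is stated in the sources used here. Livers were homogenised as whole organs, and the isolated mitochondria were treated with the nuclease Benzonase, purified on a sucrose gradient and lysed for RNA, which was then treated with DNase. cDNA was primed with oligo-dT, amplified by PCR with a barcode for each library and sequenced together.

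Aminoacyl-tRNA synthetases join an amino acid to its tRNA. Most of these enzymes exist as a cytosolic and a mitochondrial form, each encoded in the nucleus. Lars2 charges the leucine tRNAs of the mitochondrial genome. Its mRNA is made in the nucleus and translated in the cytosol, and the protein is imported into the mitochondrial matrix. There the mRNAs of the mitochondrial genome are translated into 13 proteins. The 13 reading frames each have a row in the count table, and these rows are called mitochondria-encoded mRNAs below. The study itself counts fewer mRNAs than polypeptides.

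The depth of the libraries sets how firmly their values can be read. From 12W-1 to 12W-4, the libraries held 191092, 104554, 149388 and 153726 counts. They held 12630, 85901, 22651 and 105252 in 65W-1 to 65W-4, a 15.1-fold range over the series. The libraries 65W-1 and 65W-3 were the only ones under 50000 counts. Both belong to the older group, whose other libraries, 65W-2 and 65W-4, were deeper, so results are also given without 65W-1 and 65W-3. The counts are read numbers after PCR without molecular identifiers, so all intervals below cover counting error only. The labels number the libraries as biological replicates but do not name the animals or say whether livers were pooled, so p-values measure the spread between these libraries. Hepatocyte markers were present in all libraries, with 7 of 7 listed genes found, 1.17 to 2.1% of the counts at 12 W and 0.936 to 1.66% at 65 W. None of the 7 was called between ages, where 1.5% of all 133 genes tested were called higher and 1.5% lower at 65 W. With calls this rare, their lack among 7 genes says little about hepatocyte content. The median log2 difference of the 7 was -0.17. Markers of other liver cells were scarce, with 100 counts over 5 Kupffer cell genes, 17 over 4 sinusoidal endothelial genes, 37 over 4 stellate cell genes and 68 over 3 blood cell genes with a row of 6 listed.

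Lars2 lies on the plus strand of chromosome 9 of GRCm38, at chr9:123366927-123462666. The annotation gives 9 transcripts of the gene. The table used here has no row for the coding transcript (ENSMUST00000038863.8), an RNA of 3894 nt that codes for the whole protein and stops in its last exon, at chr9:123461676-123461678. The row with the most counts is called the NMD transcript here (ENSMUST00000217116.1). It is 3756 nt long, has 21 exons and spans chr9:123366954-123462666. It is annotated as a target of nonsense-mediated decay (NMD), the pathway that removes RNAs with an early stop codon, because its reading frame ends in exon 13, at chr9:123438213-123438215. The other row is the retained-intron transcript (ENSMUST00000215087.1) of 889 nt and 4 exons at chr9:123454790-123461899, for which no reading frame is annotated.

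These names have to be read with the overlap of the sequences in mind. From position 1412 of the NMD transcript, in exon 11, to the end of the coding transcript, both transcripts are the same over 2343 nt, which is 62.4% of the NMD transcript. Over the rest, the NMD transcript has 6 bases that the coding transcript does not have, and the coding transcript has 144 that the NMD transcript does not have. A read that covers only the shared 3′ part cannot tell the decay target from the coding mRNA. At the far end they differ by 2 bases. Their last 30 bases are shown with the polyadenylation signal AATAAA in capitals, because these ends are all that separates both transcripts on the 3′ side. The end of the retained-intron transcript is added because it lacks the signal in that window.
Lars2 coding: accattgaattAATAAAtgttgtgaaccat
Lars2 NMD: cattgaattAATAAAtgttgtgaaccataa
Lars2 retained-intron: tttcagtaggaatacagaccgtgaaagcgg

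The windows lie at chr9:123462635-123462664, chr9:123462637-123462666 and chr9:123461870-123461899 on the plus strand. The retained-intron transcript ends inside the last exon, and 767 bases of the NMD transcript lie downstream of it. It shares 809 of its bases (91.0%) with the NMD transcript. The other 80 are the retained intron between exons 17 and 18 of the NMD transcript, at chr9:123454880-123454959. Inside this intron is a run of 10 A, the base to which the oligo-dT primer pairs. It is shown in capitals, at chr9:123454923-123454952 with its neighbours, 736 nt before the end of the retained-intron transcript.
Lars2 retained intron: aagtgagtttAAAAAAAAAAtcaattttta

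A run of at least 10 A, searched in the sense of the transcript, is present in 7.175% of 141767 annotated transcripts and in 14.306% of the 8591 matched rows. The longest run of A in the NMD transcript is 6 nt. The positions of reads along these transcripts were not analysed here, so whether the primer paired at the run was not tested.

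**Figure D1:**
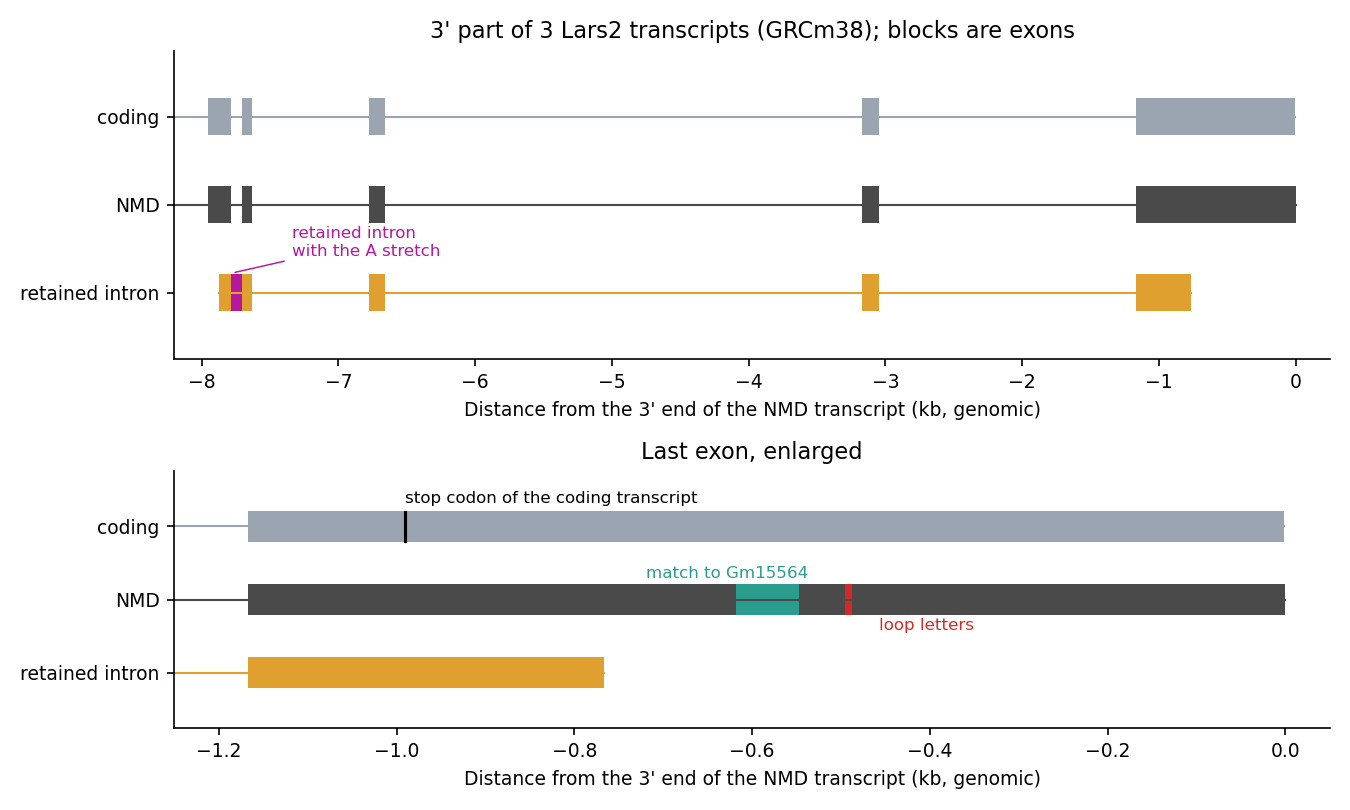
Exons of the 3′ parts of the coding transcript, the NMD transcript and the retained-intron transcript drawn to scale against the genomic distance in kb from the 3′ end of the NMD transcript, above for exons 17 to 21 and below for the last exon alone, with the stop codon of the coding transcript as a black line, the match to Gm15564 in green and the loop letters in red. The coding transcript and the NMD transcript have the same exons here up to 2 bases at the end, while the retained-intron transcript stops 767 bases earlier and keeps the intron of 80 bases that holds the A stretch.

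The last exon of the NMD transcript, which is also that of the coding transcript, carries sequence that occurs elsewhere in the annotation. Over 72 nt, at chr9:123462048-123462119, downstream of the stop codon and so in the 3′ UTR of the coding transcript, it matched a transcript of Gm15564 with 98.6% identity, including 52 nt without a difference. The first 30 bases of this match are shown, all identical in both transcripts.
Lars2 and Gm15564: GAATTCACCAAGCGTTGGATTGTTCACCCA

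A longer and weaker match of 80.1% identity joined the same region to AA474408. A little further downstream, at chr9:123462160-123462189, the exon holds the 9 letters TACGAGAGG, the core of the sarcin-ricin loop, a conserved stretch of large-subunit ribosomal RNA.
Lars2 loop letters: atcctgctcagTACGAGAGGaaccgcagct

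In the sense of the transcript, TACGAGAGG occurred in 330 of 141767 annotated transcripts (0.233%) and in 30 of the 8591 matched rows (0.349%). On either strand it occurred in 0.297% and 0.535%. Of the Lars2 transcripts, only the coding transcript and the NMD transcript hold it. Sequences of the cytosolic ribosomal RNAs were not used here, and whether more of the exon resembles them was not tested. In all, 8 other genes matched the NMD transcript at an expect value under 1e-05, and 0 of these had a row in the table. No other gene matched the retained-intron transcript at this limit. Neither Lars2 row matched a mitochondria-encoded RNA with at least 80% identity over 100 nt, the limit that 17 other nuclear rows passed.

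Lars2 took a large part of the counts on nuclear genes in these libraries. Its 13773 counts over the 8 libraries were 1.67% of all counts. Among 6463 nuclear genes with a row it ranked 2, after Gm20594, a gene whose 59284 counts fell on a transcript that matches the mitochondrial ribosomal RNA mt-Rnr2. Among the 6446 nuclear genes without such a match it ranked 1, with 1.74 times the counts of Alb, the gene for serum albumin, at 7893. Lars2 made up 16.5% of the counts on nuclear genes without a mitochondrial match. By library this share was 18.2, 24.4, 12.7 and 13.3% in 12W-1 to 12W-4 and 36.7, 24.7, 22.1 and 11.3% in 65W-1 to 65W-4. The ages overlapped, and the highest share was in the shallowest library. Of the Lars2 counts, 11155 fell on the NMD transcript, the only Lars2 row that holds the loop letters. Whether reads of other RNAs with similar sequence were counted on it was not tested, so these ranks and shares describe counts assigned to Lars2.

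Other aminoacyl-tRNA synthetases had few counts at this depth. Of 20 other mitochondrial synthetases and subunits of the mitochondrial amidotransferase that makes glutaminyl-tRNA, 10 had a row, with 19 counts in all over the 8 libraries. Gatc, a subunit of that amidotransferase, had the most, with 4 counts. Iars2 and Tars2, for isoleucine and threonine, had 3 counts each, and Gatb, another amidotransferase subunit, had 2. Kars, whose gene gives both the cytosolic and the mitochondrial lysine enzyme, also had 2. The enzymes Aars2, Ears2, Gars, Rars2 and Yars2, for alanine, glutamate, glycine, arginine and tyrosine, had 1 count each. Of 18 cytosolic synthetases, 10 had a row, with 24 counts. Lars, the cytosolic leucine enzyme and the counterpart of Lars2, had no row.

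Between genes, levels were compared per length of transcript. The NMD transcript had 2970 counts per kb and the retained-intron transcript had 2940 counts per kb, summed over the libraries. The 28 other synthetase transcripts with a count lay between 0.174 and 2.24 counts per kb. The Lars2 values are pooled over libraries in which the share of each transcript differed. Without division by length, which matters less where a read can span a whole cDNA, the Lars2 rows had 11155 and 2618 counts and the others at most 5. Other lists that serve mitochondrial gene expression were low as well. The 80 mitochondrial ribosomal proteins had 67 members with a row and 181 counts, of which Mrpl33 had the most with 20. The 13 mitochondrial translation factors had 12 counts over 7 members, the 14 genes of mitochondrial tRNA processing 9 counts over 4, and the 20 genes of mitochondrial transcription and RNA turnover 13 counts over 8. No member of these lists or of the synthetase lists, Lars2 apart, had enough counts to be tested between ages.

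**Figure D2:**
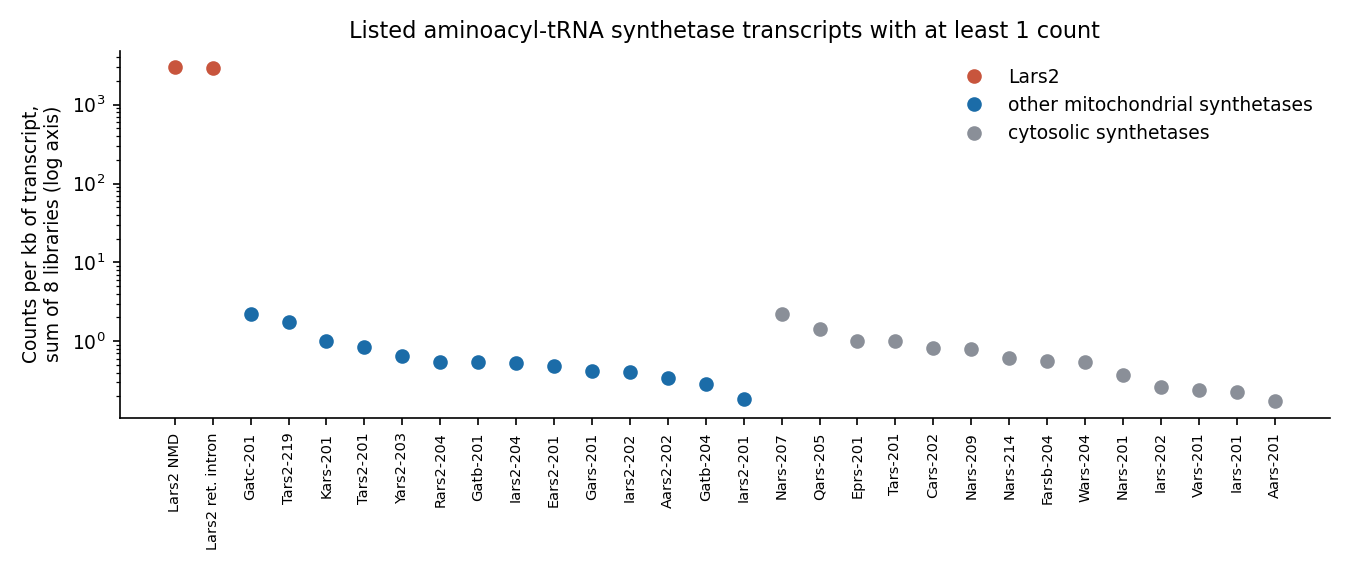
Counts per kb of transcript, summed over the 8 libraries and drawn on a log axis, for the listed synthetase transcripts with at least 1 count. The points for the NMD transcript and the retained-intron transcript lie at 2970 and 2940, and the 28 others lie at or below 2.24.

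By library, the NMD transcript had 2371, 1519, 1734 and 2089 counts in 12W-1 to 12W-4. In 65W-1 to 65W-4 it had 559, 1233, 666 and 984 counts. Raw counts were lower in every 65 W library than in every 12 W library, and these libraries were mostly shallower too. The retained-intron transcript had 595, 340, 417 and 669 counts at 12 W, and 0, 276, 55 and 266 at 65 W. The lack of any count in 65W-1 and the low count in 65W-3 fell in the shallowest libraries.

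As a share of the library, Lars2 took 1.55% (95% Wilson interval 1.5 to 1.61%), 1.78% (1.7 to 1.86%), 1.44% (1.38 to 1.5%) and 1.79% (1.73 to 1.86%) of all counts in 12W-1 to 12W-4. At 65 W the shares were 4.43% (4.08 to 4.8%), 1.76% (1.67 to 1.85%), 3.18% (2.96 to 3.42%) and 1.19% (1.12 to 1.25%). The mean of the 12 W libraries was 1.64% ± 0.174 (SD, n = 4), and that of the 65 W libraries was 2.64% ± 1.46 (SD, n = 4). The 4 younger libraries lay close together, while the older ones lay on both sides of them, with 65W-1 and 65W-3 above all 12 W libraries, 65W-4 below all of them and 65W-2 among them.

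**Figure D3:**
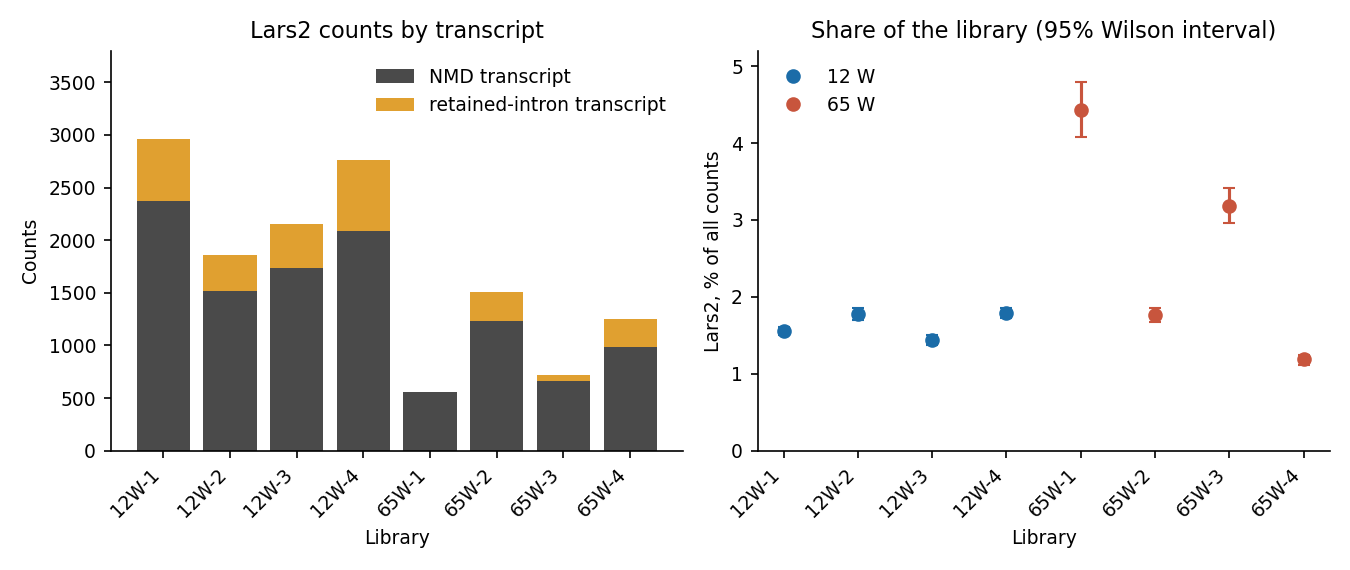
Left, counts of the NMD transcript and the retained-intron transcript stacked for each library; right, Lars2 as a percentage of all counts of the library with 95% Wilson intervals, blue for 12 W and red for 65 W. The 12 W shares lie between 1.44 and 1.79%, and the 65 W shares between 1.19 and 4.43%.

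Lars2 was next set against the other classes of RNA in each library. Relative to the mitochondria-encoded mRNAs, the older libraries lay above, among and below the younger ones as they did for the share of the library. Per 1000 counts of the mitochondria-encoded mRNAs, Lars2 had 19.7, 22.2, 18.6 and 23.3 counts at 12 W. At 65 W it had 57.2, 21.3, 42.5 and 14.6. The means were 20.9 ± 2.16 (SD, n = 4) and 33.9 ± 19.6 (SD, n = 4), a difference of 0.50 on the log2 scale (two-sided exact permutation test over 70 assignments, p = 0.371). The level in 65W-1 was 2.73 times the 12 W mean and that in 65W-3 was 2.03 times it. Without both libraries under 50000 counts, a choice made after the data were seen, the difference was -0.24 on the log2 scale (exact p = 0.4), so the direction at 65 W rested on these libraries.

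Per 1000 counts of other nuclear transcripts, those without Lars2 and without a mitochondrial match, Lars2 had 223, 324, 145 and 154 counts in the younger libraries, and 580, 328, 284 and 127 in the older ones. The 12 W libraries were more spread on this scale, on which 65W-1 and 65W-2 lay above all of them and 65W-4 below. The nuclear RNA itself ranged from 5.36 to 11.7% of the library. The means were 211 ± 82.4 (SD, n = 4) and 330 ± 188 (SD, n = 4), a difference of 0.52 on the log2 scale (p = 0.343 in the same exact test). With 4 libraries against 4, this test cannot give a p below 0.0286. Without 65W-1 and 65W-3 the difference was 0.03 (exact p = 1). In bulk samples of this kind, fewer cells or organelles that carry the RNA and less RNA in each cannot be told apart.

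In the fit across all genes kept, Lars2 did not pass the threshold between ages. Summed over both transcripts, its log2 difference of 65 W against 12 W was 0.66 (SE 0.37, adjusted p = 0.511, edgeR quasi-likelihood test over 133 genes). The unadjusted p was 0.0917. Of the genes tested, 1.5% were called higher and 1.5% lower at 65 W. Left out in turn, the libraries moved the value between 0.34 without 65W-1 and 0.92 without 65W-4. Without both libraries under 50000 counts it was 0.13 (SE 0.41, adjusted p = 0.926). With no filter on low counts, which admits 6573 genes, it was -0.17, where the median of all genes was -1.304 and Lars2 lay 1.13 above it. Over the 133 genes kept by the filter the median was -0.057, so the lower median rested on genes with few counts. The distance of Lars2 from that median is therefore no measure of an age difference.

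The transcripts had estimates of opposite sign, and neither passed the test. For the NMD transcript the log2 difference was 0.79 (SE 0.43, adjusted p = 0.493 over 132 transcripts), and for the retained-intron transcript it was -0.69 (SE 0.65, adjusted p = 0.769), in edgeR. Of the transcripts tested, 0.758% were called higher and 0.758% lower at 65 W. The estimate of the retained-intron transcript rested on its absence from 65W-1. It was -0.12 without that library, and it was 0.15 without both shallow libraries, where the NMD transcript was at 0.25.

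The share of each transcript in the Lars2 counts was steady in most libraries. The retained-intron transcript made up 20.1% (95% Wilson interval 18.7 to 21.5%), 18.3% (16.6 to 20.1%), 19.4% (17.8 to 21.1%) and 24.3% (22.7 to 25.9%) of Lars2 counts in 12W-1 to 12W-4. In 65W-2 and 65W-4 it made up 18.3% (16.4 to 20.3%) and 21.3% (19.1 to 23.6%). These 6 libraries, each with 50000 counts or more, thus spanned 18.3 to 24.3%, with 12W-4 above the intervals of the 3 other 12 W libraries. In 65W-3 the share was 7.63% (5.91 to 9.8%), below the intervals of all 6. In 65W-1 it was 0 of 559 counts, with a Wilson interval of 0 to 0.683%, and the limit of 3 counts allows a share of up to 0.537%.

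This gap was larger than the counting error. At the share of the 7 other libraries together, 19.8%, the 559 Lars2 counts of 65W-1 would have held 111 counts of the retained-intron transcript. At the lowest share among them, that of 65W-3, they would have held 42.6. The share of the NMD transcript, the complement, averaged 79.5% ± 2.61 (SD, n = 4) in the younger and 88.2% ± 9.81 (SD, n = 4) in the older libraries. The difference of 8.7 percentage points did not pass a two-sided exact permutation test (p = 0.229). Without both shallow libraries it was 0.713 percentage points (exact p = 1).

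Set against the mitochondria-encoded mRNAs, the transcripts departed from each other in these 2 libraries. The NMD transcript had 15.8, 18.1, 15 and 17.6 counts per 1000 mRNA counts in 12W-1 to 12W-4 and 57.2, 17.4, 39.3 and 11.5 in 65W-1 to 65W-4. Its range was 1.57-fold in the 6 deeper libraries and 4.97-fold in all. The retained-intron transcript had 3.96, 4.05, 3.6 and 5.65 per 1000 at 12 W, and 0, 3.9, 3.25 and 3.11 at 65 W. In 65W-3, where the NMD transcript was above every deeper library, the level of the retained-intron transcript lay among theirs. In 65W-1, the NMD transcript was at its highest and the retained-intron transcript was at 0, under a limit of 0.307 per 1000 from 3 counts. The lowest level elsewhere, 3.11 per 1000, would have given 30.4 counts there. The high Lars2 shares of 65W-1 and 65W-3 thus rested on counts of the NMD transcript. The older libraries of greater depth did not share it, since 65W-2 and 65W-4 had 17.4 and 11.5 counts of the NMD transcript per 1000 and retained-intron shares of 18.3 and 21.3%. The part of depth in this was not tested.

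**Figure D4:**
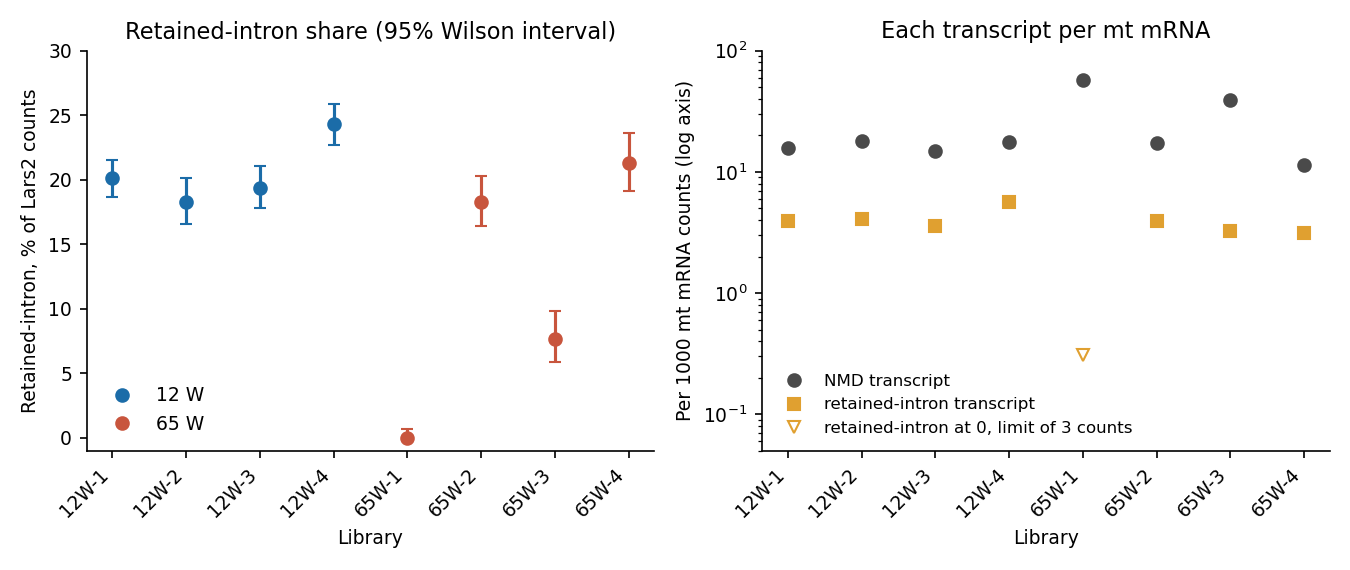
Left, the retained-intron transcript as a percentage of Lars2 counts by library, with 95% Wilson intervals; right, counts of the NMD transcript (circles) and the retained-intron transcript (squares) per 1000 counts of mitochondria-encoded mRNAs, on a log axis, with the limit of 3 counts for 65W-1 as an open triangle at 0.307. The 2 libraries with a low share of the retained-intron transcript, 65W-1 and 65W-3, have the highest levels of the NMD transcript, at 57.2 and 39.3 per 1000.

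Across libraries, Lars2 counts were higher in deeper libraries, but less than in proportion. They spanned 5.31-fold, and those of the NMD transcript 4.24-fold, against 15.1-fold in total counts. On log2 scales, the slope of Lars2 counts on all other counts was 0.58, where 1 would be a constant share. Over the 8 libraries Pearson's r of these values was 0.96 and Spearman's rho was 0.93. Without 65W-1 and 65W-3, the libraries farthest from the median, r was 0.87. The share of Lars2 in the library, in turn, was lower at higher total counts (r = -0.92 on log2 scales, rho = -0.6), and r was -0.04 without these 2 libraries. The inverse relation of share and depth therefore rested on 65W-1 and 65W-3. These correlations are descriptions, given without p because how Lars2 follows depth is part of what it was chosen for, and both quantities of each come from the same library.

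Lars2 did not follow any of the classes of RNA closely over all 8 libraries. The coefficient of variation of its counts was 53% relative to all other counts and 53.3% relative to the mitochondria-encoded mRNAs. It was 51.8% relative to the nuclear rows that match mitochondrial RNA and 54.8% relative to other nuclear transcripts. The classes varied less against each other, with a coefficient of variation of 16.1% between mitochondria-encoded mRNAs and the rows that match mitochondrial RNA, 33.4% between these mRNAs and other nuclear transcripts, and 39.8% between the rows that match and other nuclear transcripts. In the 6 deeper libraries alone the order was different. There the coefficient for Lars2 was 15.4% relative to all other counts, 15.6% relative to mitochondria-encoded mRNAs and 17.3% relative to the rows that match them, but 41.7% relative to other nuclear transcripts. Other nuclear transcripts themselves ranged from 5.36% of the counts in 65W-2 to 11.7% in 12W-4, both among these 6. The coefficients between classes were not computed for the 6 alone, so the part of this spread in the 41.7% was not tested.

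On log2 scales, r of Lars2 with mitochondria-encoded mRNAs, rows that match mitochondrial RNA and other nuclear transcripts was 0.95, 0.97 and 0.91 over all libraries, with rho of 0.93, 0.98 and 0.86. Without 65W-1 and 65W-3 these r values were 0.87, 0.91 and 0.65. All 3 classes share the depth of the library with Lars2, and mitochondria-encoded mRNAs made up 74.8 to 82.4% of each library, so depth and this class cannot be told apart.

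Few transcripts had a slope on depth as low as that of Lars2. The slope of log2 counts on log2 total counts was 0.59 for summed Lars2, with nothing added to its counts. With 0.5 added to each count, as for all single transcripts here, the slope was 0.50 for the NMD transcript. It was 2.23 for the retained-intron transcript, a value set by its 0 in the shallowest library. Among the 130 other transcripts kept, the slope ranged from 0.28 to 2.14 with a median of 0.99, and 7 of them were below Lars2. The 13 mitochondria-encoded mRNAs lay between 0.73 and 1.16. Slopes of rare transcripts carry more counting error, and those below Lars2 had far fewer counts than Lars2. Examples are Hsp90b1, with 127 counts and a slope of 0.55, and Mup18, with 473 counts and a slope of 0.46. Mup18, for a major urinary protein made by hepatocytes, was chosen after its value was seen. It was also called higher at 65 W (log2 difference 1.49, adjusted p = 0.0189, edgeR), as were 0.758% of the 132 transcripts tested. Median depth was 54276 counts at 65 W and 151557 at 12 W. A low slope on depth and a higher level at 65 W therefore cannot be told apart here, for Lars2 as well.

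**Figure D5:**
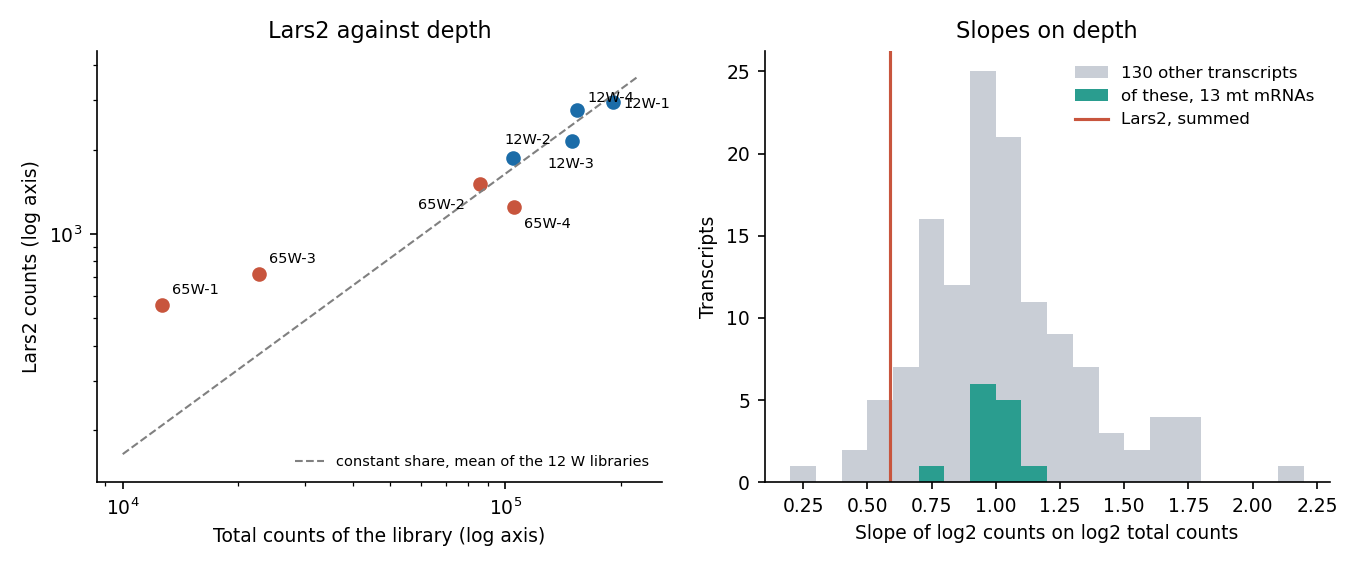
Left, Lars2 counts against the total counts of each library on log axes, blue for 12 W and red for 65 W, with a dashed line for a constant share at the 12 W mean of 1.64%; right, a histogram of the slopes of log2 counts on log2 total counts for 130 other transcripts, with the 13 mitochondria-encoded (mt) mRNAs in green and summed Lars2 as a line at 0.59. The libraries 65W-1 and 65W-3 lie above the dashed line, and the line for Lars2 lies to the left of all 13 mitochondria-encoded mRNAs.

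The 5 transcripts most like Lars2 over the 8 libraries, by Pearson's r of TMM-scaled log2 CPM, were Hsp90b1 (r = 0.73), mt-Nd4l (r = 0.70), Rps29 (r = 0.69), Gm28439 (r = 0.63) and Rpl26 (r = 0.57). Hsp90b1 is a chaperone of the endoplasmic reticulum, mt-Nd4l a mitochondria-encoded subunit of respiratory complex I, Rps29 and Rpl26 are proteins of the cytosolic ribosome, and the Gm28439 transcript matches the mitochondria-encoded mt-Nd4. On this scale, Lars2 had values of 14, 14.62, 13.78 and 13.95 in 12W-1 to 12W-4 and 15.55, 14.47, 14.6 and 13.54 in 65W-1 to 65W-4. The highest value of Hsp90b1, 9.06, of mt-Nd4l, 12.13, of Rps29, 8.51, and of Rpl26, 8.12, was also in 65W-1, where their counts were 6, 52, 4 and 3. Gm28439 had its highest value, 9.79, in 12W-2. Spearman's rho with Lars2 was 0.38, 0.43, 0.24, 0.67 and 0.33 in the order of the list, below Pearson's r for each of these but Gm28439. Over the 130 transcripts r ranged from -0.96 to 0.73, with 5 above 0.5 and 41 below -0.5.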

How the data were processed

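The authors sequenced RNA of gradient-purified liver mitochondria as 8 PCR-barcoded Nanopore cDNA libraries. The authors deposited counts for each Ensembl transcript, made with the Epi2Me Labs 1.1 workflow and not normalized. The submitters' processing notes name minimap2, SAMtools, edgeR and GRCm38 (mm10). The counting tool's handling of reads that several transcripts share, which decides the counts of the overlapping Lars2 transcripts, is not given in the sources used here. Normalization to Rnr2, as in the study, could not be used. The 13 mitochondria-encoded rows matched here were all mRNAs, and none was Rnr2.

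Of 8688 rows, 8591 were matched to GENCODE M21 (GRCm38), and 97 rows with 0.0946% of the counts were not. Rows were searched with BLAST 2.17.0 against 37 mitochondrial transcripts and called a match at 80% identity over 100 nt. Ages were compared with edgeR 4.0.16 (TMM, filterByExpr, quasi-likelihood test, Benjamini-Hochberg, threshold 0.05) in R 4.3.3, and ratios with exact permutation tests in SciPy 1.17.1. Log2 CPM used a prior count of 2. On simulated counts with a log2 change of 2, 85.5% of changed genes among 133 and 76.5% of changed transcripts among 132 were recovered, with 0.285% and 0.492% of the unchanged ones called. This change is larger than the estimates for Lars2 and its transcripts, and recovery of changes of their size was not simulated. Alternatives were RLE factors, no scaling, other library sizes, no filter, at least 10 counts in every library, DESeq2 1.42.0, limma 3.58.1 (voom), a replicate block and each library left out. Named are Lars2, the mitochondrial synthetases with a count (1 gene of this class is not reported here) the 5 transcripts with the highest correlation to Lars2 and Gm20594, the nuclear row with the most counts that matches mitochondrial RNA. Alb, Mrpl33, Mup18, Lars and the genes with sequence matches were named for comparison, outside this rule. The members and lists were chosen with earlier results of these data known. No pair of libraries of the same age agreed within sampling noise.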

Additional observations from a re-analysis of the deposited data

How the results depend on the processing

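No alternative brought the age difference of Lars2, of either transcript, of its ratios or of its isoform share past the threshold. At the gene level the log2 difference of 0.66 was -0.17 without a low-count filter and 0.13 to 0.75 under the other alternatives, and it ranged from 0.34 to 0.92 with 1 library left out. For the NMD transcript the values were 0.03 without a filter and 0.25 to 0.93 otherwise, and from 0.44 to 1.1 with 1 library left out. Leaving out both libraries under 50000 counts, chosen after seeing the data, turned the direction of Lars2 per 1000 mitochondria-encoded mRNA counts to -0.24 and that of the retained-intron transcript to 0.15; the retained-intron transcript ranged from -1.11 to -0.12 with 1 library left out, and the filter of 10 counts in every library removed it. With 1 library left out, the log2 ratio to mitochondria-encoded mRNAs ranged from 0.18 to 0.84, that to other nuclear counts from 0.19 to 0.92, and the difference in the share of the NMD transcript from 4.77 to 11.9 percentage points, each lowest without 65W-1. The coefficient of variation of Lars2 relative to all other counts was 53% and moved to 36.4% without 65W-1 (36.4 to 57% with 1 library left out) and to 15.4% without both shallow libraries. Relative to mitochondria-encoded mRNAs it moved to 15.6% (38.8 to 56.8%), and relative to rows that match them to 17.3% (36.3 to 55.6%). The cause of these shifts was not tested. The counts of calls over all genes were 4 of 133 in the fit reported and 1 to 8 under the alternatives, and over transcripts 2 of 132 and 0 to 7.

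Replicate numbers did not pair the libraries, since the correlations of their deviations from the group means were -0.12, 0.26, -0.40 and 0.22. With the number as a replicate block, the log2 difference was 0.53 for Lars2 (adjusted p = 0.528, edgeR), 0.59 for the NMD transcript and -1.08 for the retained-intron transcript (both adjusted p = 0.554). In the same block the log2 ratios were 0.50 (exact p = 0.5) and 0.52 (exact p = 0.375) and the share difference 8.7 percentage points (exact p = 0.25), where an exact test of 4 pairs cannot give less than 0.125. Depth left the synthetases other than Lars2 with too few counts to be tested between ages.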
